A study of Mus musculus with 16 samples.

Results

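The 10 genes described here, Lyz2, Csf1r, Adgre1, Cd68, Mertk, Fcgr1, Cd14, Trem2, Mrc1 and Cd163, are markers of macrophages, the phagocytes that live in tissue or enter it as monocytes from blood. They were taken by name, and all 10 were found among the 45706 gene identifiers of the read count table. Mrc1 and Cd163, which mark macrophages resident in tissue, are treated apart from the other 8, which are general markers of the lineage. The libraries are RNA-seq of the ear in 8 male mice of the inbred strain C57BL/6J. A piece of one ear was taken at 24 months of age and of the other ear of the same animal at 30 months, giving 16 libraries and 8 pairs, with recorded ages of 23.8 to 24.4 months and 29.0 to 30.1 months. No treatment, transgene or mutant allele is named for either age. A biopsy holds the whole thickness of the ear, with skin, cartilage, vessels and some muscle, and no cell type was sorted from it. In such bulk tissue fewer macrophages and less RNA per macrophage cannot be told apart, nor can the age of a biopsy be told apart from its place as the first or the second one taken.

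In the dermis, macrophages clear dying cells and debris, sample their surroundings for microbes and support repair. Their survival depends on the receptor encoded by Csf1r, which binds the cytokines Csf1 and Il34; keratinocytes are a main source of Il34 in skin. The transcription factor PU.1, encoded by Spi1, is required for the lineage and binds near many of its genes. Interferon gamma shifts macrophages towards an inflammatory state in which Fcgr1 and the chemokines Cxcl9 and Cxcl10 are made, whereas Mrc1 and Cd163 belong to resident and anti-inflammatory states.

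The sequence before the transcription start was read for 7 of the 10 members from a RefSeq table of promoters of GRCm38.p6. The promoters of Csf1r, Adgre1 and Cd14 were not read, so the motif counts below do not cover these members. The 250 bases before the start are given for Fcgr1, the member with the widest spread between mice, for Trem2, the member with the next widest spread, and for the pair of resident markers, Mrc1 and Cd163, whose levels parted in some mice. They lie at chr3:96293970-96294219 on the minus strand for Fcgr1, chr17:48346151-48346400 on the plus strand for Trem2, chr2:14229164-14229413 on the plus strand for Mrc1 and chr6:124304401-124304650 on the plus strand for Cd163. Each is written 5′ to 3′ along the gene, and capitals mark the core of the PU.1 motif, GAGGAA or its complement TTCCTC, and the gamma-activated site TTCNNNGAA, a motif bound by STAT factors after interferon gamma.
Fcgr1: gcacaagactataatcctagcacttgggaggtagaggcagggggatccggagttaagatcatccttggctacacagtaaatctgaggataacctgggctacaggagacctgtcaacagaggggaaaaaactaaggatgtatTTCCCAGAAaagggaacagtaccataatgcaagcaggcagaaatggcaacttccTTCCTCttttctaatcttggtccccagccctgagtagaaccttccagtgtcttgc
Trem2: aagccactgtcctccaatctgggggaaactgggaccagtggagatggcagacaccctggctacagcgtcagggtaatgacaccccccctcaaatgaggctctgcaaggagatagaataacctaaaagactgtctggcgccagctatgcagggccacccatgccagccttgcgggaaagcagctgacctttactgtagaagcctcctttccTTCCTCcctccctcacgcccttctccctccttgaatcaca
Mrc1: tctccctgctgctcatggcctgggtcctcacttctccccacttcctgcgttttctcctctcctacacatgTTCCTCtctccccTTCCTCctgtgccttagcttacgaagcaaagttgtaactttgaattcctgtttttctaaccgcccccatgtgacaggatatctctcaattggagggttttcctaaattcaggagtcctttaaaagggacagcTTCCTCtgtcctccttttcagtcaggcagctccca
Cd163: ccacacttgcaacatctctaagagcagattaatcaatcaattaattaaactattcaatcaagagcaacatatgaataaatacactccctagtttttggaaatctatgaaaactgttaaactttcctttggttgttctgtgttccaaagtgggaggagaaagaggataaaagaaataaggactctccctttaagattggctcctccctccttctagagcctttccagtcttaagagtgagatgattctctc

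The PU.1 core was found on either strand in 4 of the 7 promoters of 300 bases (250 before and 50 after the start), those of Cd68, Fcgr1, Trem2 and Mrc1, beside 28.3% of all 32851 promoters in the table. Mrc1 held 3 copies. The gamma-activated site was found in 1 of the 7, that of Fcgr1, where TTCCCAGAA begins at position -109 counted from the transcription start; 8.3% of all promoters hold a match. Neither the core of the interferon-stimulated response element nor the TATA box letters TATAAA were found in the 7, beside 3.44% and 13.6% of all promoters. No matches overlapped. These matches are descriptions of letters and say nothing of whether a factor was bound.

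Library depth was 22967222 to 36162431 reads on genes. Levels are given as CPM, the reads of a gene for each 1000000 reads on the genes tested, after scaling between libraries, and, where genes are compared with each other, as RPKM, which also divides by the exon length in kilobases. Ages were compared within each mouse by the quasi-likelihood test of edgeR, and p-values were adjusted by Benjamini-Hochberg over the 20116 genes that passed the filter on low counts, all 10 members among them. At an adjusted p under 0.05 edgeR called 0 of 20116 genes (0%). An unadjusted p under 0.05 was reached by 2454 genes (12.2%), of which 971 were higher (4.83%) and 1483 lower (7.37%) at 30 months, and 0 of the 10 members. DESeq2's Wald test called 241 of 16606 genes (1.45%) and 0 members, with 0 members at an unadjusted p under 0.05.

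The macrophage genes did not pass the test in either direction, and their levels moved differently from mouse to mouse. For 9 of the 10 the fitted log2 fold change was above 0, as it was for 52.1% of all genes tested, and the median over the members was 0.24, beside 0.01 over all genes, whose 5th and 95th percentiles were -0.37 and 0.42. Without mouse 50 the median over the members was 0.08, with 7 of the 10 above 0. No member was higher in all 8 mice or lower in all 8, which held for 1.09% and 1.8% of all genes. The 24-month and 30-month groups overlapped for each of the 10, and were apart for 0.224% of all genes tested.

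**Figure D1:**
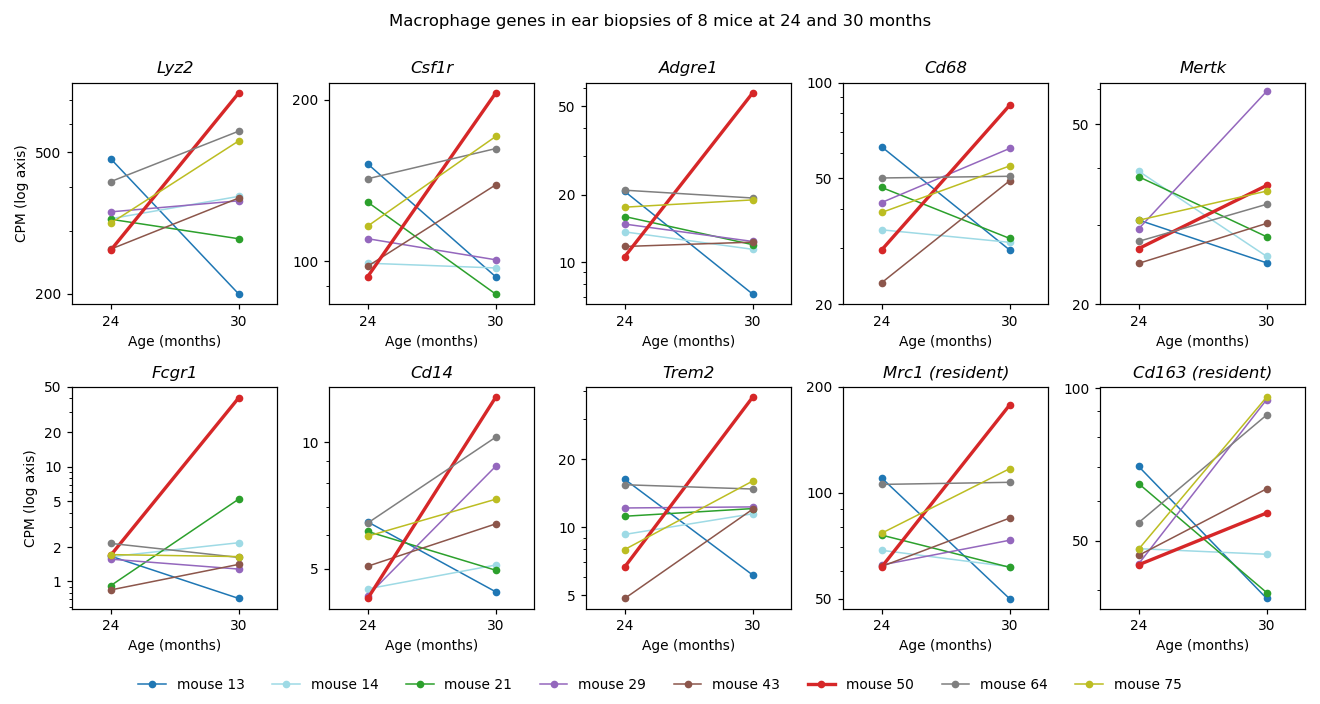
CPM of the 10 macrophage genes (log axis, 1 panel per gene) at 24 and 30 months, with a line for each of the 8 mice and mouse 50 drawn thick. Mouse 50 has the highest 30-month value for Lyz2, Csf1r, Adgre1, Cd68, Fcgr1, Cd14, Trem2 and Mrc1, but not for Mertk or Cd163, and in mouse 13 all 10 lines go down.

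Per length, the members spanned a wide range. The mean level at 24 months was 259 RPKM for Lyz2, 32.6 for Cd68, 20.3 for Csf1r, 12.2 for Mrc1, 9.66 for Cd163, 7.13 for Mertk, 4.87 for Adgre1, 3.11 for Cd14, 2.12 for Trem2 and 0.589 for Fcgr1. At 30 months the order was the same, from 327 RPKM for Lyz2 down to 3.10 for Trem2 and 2.63 for Fcgr1. Neighbours in this order whose means differed by less than the sum of their SDs at 24 months were Cd68 and Csf1r, Mrc1 and Cd163, Cd163 and Mertk, Mertk and Adgre1, and Cd14 and Trem2. For Mrc1 and Cd163, for example, the levels were 12.2 ± 3.07 and 9.66 ± 1.77 RPKM (SD, n = 8). At 30 months, with wider SDs, this held for all neighbours but Lyz2 and Cd68. All of these macrophage markers were detected in every library, with 26 counts at the least for Fcgr1 and 23261 at the most for Lyz2.

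Among the general markers, Lyz2 encodes lysozyme M, a bacteria-degrading enzyme of macrophages, monocytes and neutrophils (chromosome 10, 117277331 to 117282321, minus strand). Its level at 24 months ran from 265 to 479 CPM with a median of 325, and at 30 months from 200 to 734 CPM with a median of 374. The 30-month values thus reached both below and above the whole 24-month range. For Lyz2, 6 of 8 mice were higher at the second biopsy, and the log2 fold change was 0.26 ± 0.24 (SE; Benjamini-Hochberg adjusted p = 0.660, edgeR). Lyz1, the neighbouring gene for the near-identical lysozyme P, shares 195 of the 1267 windows of 50 bases in the Lyz2 exons, the length of the reads, and reads from these windows are uncertain between the pair. For Lyz1 the log2 fold change was 0.31 (unadjusted p = 0.166, edgeR), again with 6 of 8 mice higher. The ratio of Lyz2 to Lyz1 CPM lay between 3.75 and 8.46, and its highest value was in mouse 50 at 30 months, against 4.38 in the same mouse at 24 months.

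Csf1r, the receptor for Csf1 and Il34, had 93.5 to 152 CPM at 24 months with a median of 113, and 86.7 to 206 CPM at 30 months with a median of 120. It was higher in 4 of 8 mice, so its direction was evenly divided. The log2 fold change was 0.12 ± 0.19 (SE), and without mouse 50 it was -0.02. The exons of Csf1r share 15.1% of their bases with Hmgxb3. The library kit does not mark strand, so reads in that stretch are uncertain between these genes.

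Adgre1 encodes F4/80, the surface protein most used to stain mouse macrophages (chromosome 17, 57358691 to 57483527, plus strand). It had 10.6 to 21.01 CPM at 24 months with a median of 15.4, and 7.19 to 57.4 CPM at 30 months with a median of 12.3. Its lowest 24-month value and its highest 30-month value both came from mouse 50. The fitted log2 fold change was -0.03 ± 0.33 (SE), with 3 of 8 mice higher, and it was -0.34 ± 0.18 without mouse 50 (unadjusted p = 0.0910, edgeR). The mean CPM went the other way, 15.8 ± 3.86 (SD, n = 8) at 24 months and 18.9 ± 16.1 at 30 months, where it was 13.4 ± 4.36 (n = 7) without mouse 50.

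Cd68, a glycoprotein of the lysosomal membrane, marks phagocytes with active uptake (chromosome 11, 69664213 to 69666153, minus strand). Its level was 23.4 to 62.8 CPM at 24 months with a median of 40.4, and 29.6 to 84.9 CPM at 30 months with a median of 49.9. Its log2 fold change was 0.24 ± 0.26 (SE), with 5 of 8 mice higher, and 0.06 without mouse 50. The groups overlapped over most of their range.

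Mertk and Trem2 bind dying cells and lipids, and each had its highest value in a single old biopsy. Mertk, a receptor tyrosine kinase that binds dying cells through Gas6 and Pros1 (chromosome 2, 128698956 to 128802894, plus strand), had 24.6 to 39.4 CPM at 24 months with a median of 30.0, and 24.7 to 59.2 CPM at 30 months with a median of 31.7. Its log2 fold change was 0.11 ± 0.17 (SE), with 5 of 8 mice higher. Its highest value came from mouse 29, not from mouse 50, and without mouse 29 the log2 fold change was -0.02. Trem2, a lipid receptor that signals through the adaptor Tyrobp (chromosome 17, 48346401 to 48354147, plus strand), had 4.85 to 16.3 CPM at 24 months with a median of 10.2, and 6.15 to 37.7 CPM at 30 months with a median of 12.2. Its log2 fold change was 0.46 ± 0.35 (SE), with 6 of 8 mice higher, and was 0.19 without mouse 50 and 0.72 without mouse 13. The 30-month values of the 7 mice other than mouse 50 ended at 16.0 CPM, within the 24-month range.

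Cd14, the co-receptor for bacterial lipopolysaccharide, came closest to the threshold of all members. It had 4.24 to 6.46 CPM at 24 months with a median of 5.52, and 4.399 to 12.8 CPM at 30 months with a median of 6.85. In 4 of the 8 mice the 30-month value lay above every 24-month value. The log2 fold change was 0.41 ± 0.22 (SE), with 6 of 8 mice higher (unadjusted p = 0.0899, adjusted p = 0.473, edgeR's quasi-likelihood test). Without mouse 50 it was 0.24 and without mouse 13 it was 0.55, with an unadjusted p of 0.0274 in the latter fit.

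Fcgr1 encodes the high-affinity receptor for IgG (chromosome 3, 96282909 to 96293969, minus strand; its promoter is printed above). It was the scarcest member and the one that spread most, with 0.844 to 2.15 CPM at 24 months (median 1.66) and 0.710 to 40.4 CPM at 30 months (median 1.64). In 6 of the mice it lay between 0.710 and 2.18 CPM at 30 months. In mouse 21 it went from 26 to 122 counts, 0.921 to 5.25 CPM, and in mouse 50 from 60 to 1279 counts, 1.70 to 40.4 CPM. The mean at 30 months was 6.81 ± 13.6 CPM (SD, n = 8), and 2.02 ± 1.495 (n = 7) without mouse 50, beside 1.53 ± 0.435 (n = 8) at 24 months. The log2 fold change was 0.71 ± 0.59 (SE), with 4 of 8 mice higher, and 0.22 without mouse 50.

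The resident markers did not stand apart from the general ones in their mean, but they parted from each other in single mice. Mrc1, the mannose receptor CD206 (chromosome 2, 14229392 to 14332057, plus strand), had 61.6 to 110 CPM at 24 months with a median of 72.2, and 49.97 to 178 CPM at 30 months with a median of 79.1. Its log2 fold change was 0.16 ± 0.23 (SE), with 5 of 8 mice higher, and -0.03 without mouse 50. Cd163, the scavenger receptor for haemoglobin bound to haptoglobin (chromosome 6, 124304656 to 124330527, plus strand), had 44.8 to 70.1 CPM at 24 months with a median of 48.1, and 38.4 to 96.1 CPM at 30 months with a median of 60.0. Its log2 fold change was 0.25 ± 0.22 (SE), with 5 of 8 mice higher, and leaving out mouse 50 gave 0.24, mouse 29 gave 0.13 and mouse 75 gave 0.14. The ratio of Cd163 to Mrc1 CPM lay between 0.513 and 0.855 at 24 months. At 30 months it ran from 0.319 in mouse 50 to 1.296 in mouse 29, and these ratios lay outside the 24-month range on either side.

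**Figure D2:**
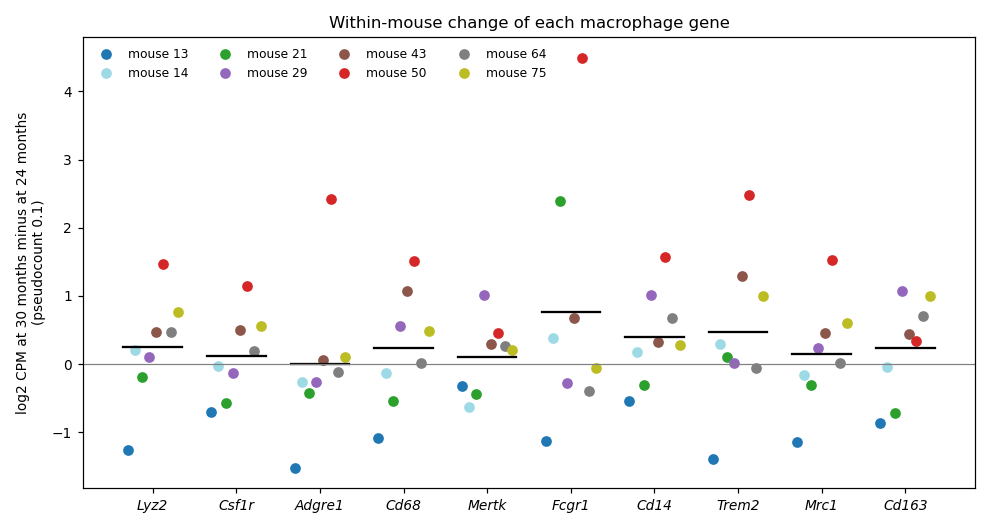
Within-mouse difference in log2(CPM + 0.1), 30 minus 24 months, for each of the 10 genes, with 1 point per mouse and a black bar at the mean of the 8 mice. Points of each gene lie on both sides of 0; mouse 50 lies at 4.49 for Fcgr1, 2.48 for Trem2 and 2.43 for Adgre1, and mouse 13 lies below 0 for every gene.

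Added over the 10 genes, the level was 694 ± 139 CPM (SD, n = 8) at 24 months and 852 ± 321 CPM at 30 months. The log2 of the ratio within a mouse averaged 0.23 ± 0.73 (SD, n = 8), with 6 of 8 mice higher. Lyz2 made up 43.9% to 56.2% of the sum, and without it the average was 0.20. The 8 general markers went from 563.8 ± 113 to 695 ± 269 CPM, an average log2 ratio of 0.23 ± 0.74 with 6 of 8 mice higher. The pair of resident markers went from 131 ± 27.4 to 157 ± 54.9 CPM, 0.21 ± 0.71 with 5 of 8 mice higher. These averages are smaller than the spread between the mice. Without mouse 50 the average for all 10 was 0.06, and without mouse 13 it was 0.42.

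The spread between mice was wide for the members. The SD over the 8 mice of the within-mouse log2 difference was 0.54 for Mertk at the least and 1.83 for Fcgr1 at the most, beside a median of 0.31 and a 95th percentile of 1.04 over all genes tested. Mouse 13 had the lowest and mouse 50 the highest difference for all members but Mertk, where these were mice 14 and 29, and Cd163, where mouse 29 was the highest. In mouse 13 all 10 members were lower at 30 months, from Mertk at 0.804 times its 24-month CPM down to Adgre1 at 0.346 times, whereas 47.0% of all genes tested were higher in that mouse. In mouse 50 all 10 were higher, by 1.27 times for Cd163 and 23.8 times for Fcgr1. Of all genes tested, 46.6% were higher in mouse 50. More than 2-fold higher there held for 7 of the 8 general markers, for 1 of the 2 resident markers and for 6.92% of all genes. Mouse 43 was higher for all 10 as well, by 1.05 times for Adgre1 to 2.48 times for Trem2. Of the other mice, mouse 75 was higher for 9 of the 10, mice 29 and 64 for 7 each, mouse 14 for 4 and mouse 21 for 2. Over all genes tested, 48.1% (mouse 14) to 50.9% (mouse 43) were higher in these 6 mice. Mouse 50 had the next to lowest sum of the 10 at 24 months, 545 CPM beside 544 CPM in mouse 43, and the highest at 30 months, 1445 CPM. Mouse 13 had the highest at 24 months, 950 CPM, and the lowest at 30 months, 454 CPM.

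**Figure D3:**
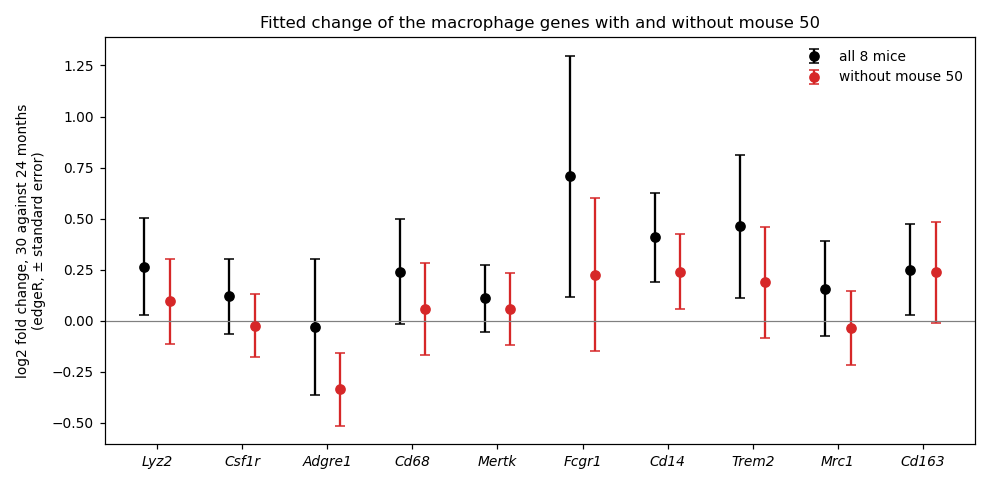
Fitted log2 fold change of the 10 macrophage genes, 30 against 24 months, with bars of 1 standard error, from edgeR's fit of all 8 mice (black) and of the 7 mice without mouse 50 (red). Without mouse 50 the estimates for Csf1r, Adgre1 and Mrc1 are below 0 and that for Cd163 is nearly the same, 0.24 beside 0.25.

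Most members moved together across the mice, and Fcgr1, Mertk and Cd163 did so least. As a description over 8 mice that share each library and its scaling, the correlation of a member's within-mouse difference with the mean difference of the other 9 was 0.99 for Mrc1, 0.96 for Adgre1, 0.94 for Trem2, 0.94 for Lyz2, 0.92 for Cd68, 0.91 for Csf1r and 0.85 for Cd14. It was 0.59 for Fcgr1, 0.50 for Mertk and 0.49 for Cd163. Spearman's rho over the same 8 mice ran from 0.45 for Fcgr1 to 0.98 for Mrc1. Without mouse 50 the correlation was 0.98 for Mrc1, 0.76 for Cd163 and 0.07 for Fcgr1. Which member lay farthest from the others thus depended on the measure: Cd163 by Pearson's r over all 8 mice, and Fcgr1 by rho and without mouse 50.

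The 10 other genes of all those tested whose within-mouse difference went most closely with the mean of the 10 members over the 8 mice were Ctss, Arl11, Tifa, Plek, Msr1, Ugt1a7c, Bid, Spic, Fcgr3 and C3ar1, with Pearson's r from 0.985 for Ctss down to 0.976 for C3ar1. Ctss encodes cathepsin S, a lysosomal protease of antigen-presenting cells, Msr1 a scavenger receptor, Fcgr3 a low-affinity IgG receptor and Spic a transcription factor of red pulp macrophages. Ctss had a mean of 108 CPM at 24 months and 183 CPM at 30 months, with 75.2 and 550 CPM in mouse 50. Without mice 13 and 50, the ends of the range, r over the other 6 mice was 0.867 for Ctss, 0.968 for Arl11 and 0.762 for Fcgr3.

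Fcgr1 and 3 genes from the lists of complement and phagocyte genes and of inflammatory activation had high 30-month values in the same mice, 21 and 50; these 3 were picked after their values were seen. Fcgr4, another receptor for IgG, went from 0.390 to 5.73 CPM in mouse 21 and from 0.453 to 87.5 CPM in mouse 50. Cxcl9, a chemokine for T cells, went from 1.13 to 72.0 CPM in mouse 21 and from 1.16 to 204 CPM in mouse 50. Cxcl10, which binds the same receptor as Cxcl9, went from 0.744 to 42.1 CPM and from 0.735 to 56.3 CPM. In the other 6 mice Cxcl9 stayed at 0.372 to 4.27 CPM and Cxcl10 at 0.256 to 2.53 CPM. In mouse 21 this went with lower levels of 8 of the 10 members at 30 months, among them Csf1r at 0.673 times and Cd163 at 0.609 times the 24-month CPM. Fcgr1 thus parted from these 8 there, while Trem2 stood at 1.08 times its 24-month CPM.

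**Figure D4:**
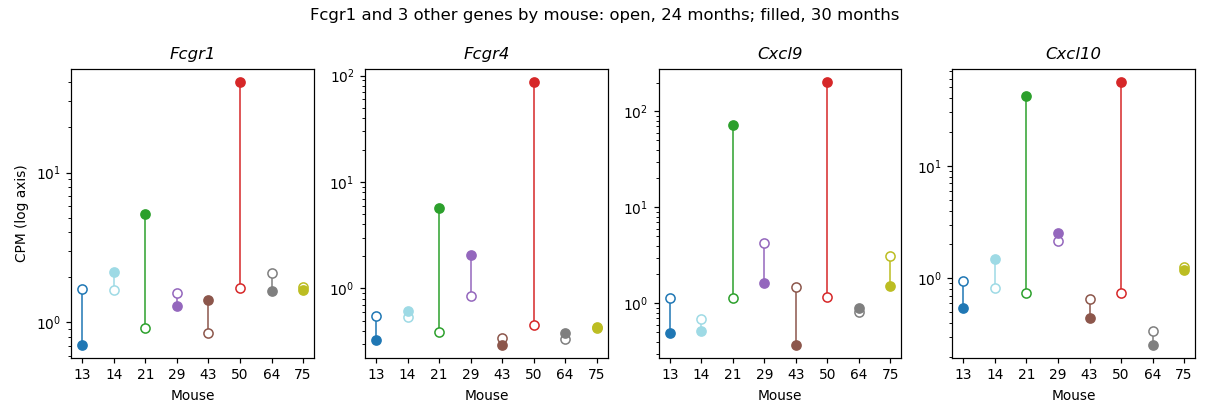
CPM (log axis) of Fcgr1, Fcgr4, Cxcl9 and Cxcl10 in each of the 8 mice, open circles at 24 months and filled circles at 30 months joined by a line. The filled circles of mice 21 and 50 stand above all others in each panel, with 5.25 and 40.4 CPM for Fcgr1.

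The ligands, adaptors and other partners of the member receptors were read from a list of 17 genes, all tested. At an unadjusted p under 0.05, 2 were higher and 1 lower, beside 4.83% and 7.37% of all genes tested. The median log2 fold change was 0.10, and no gene of this or any other list named below passed the adjusted threshold. Il34, the second ligand of Csf1r, was lower in 6 of 8 mice, with 56.0 ± 5.55 CPM (SD, n = 8) at 24 months and 46.2 ± 9.91 at 30 months and a log2 fold change of -0.30 (unadjusted p = 0.0286, edgeR). Csf1 had 58.1 ± 8.06 and 57.7 ± 11.9 CPM, a log2 fold change of -0.02. Hcst, an adaptor akin to Tyrobp, had a log2 fold change of 0.63, and Apoe, a lipid carrier that binds Trem2, of 0.22, each higher in 7 of 8 mice. Tyrobp itself went with Trem2 in mouse 50, from 21.5 to 83.9 CPM, and its log2 fold change over all mice was 0.10.

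Of 10 transcription factors of the lineage, 1 was higher and 1 lower at an unadjusted p under 0.05, beside 4.83% and 7.37% of all genes tested. Their median log2 fold change was 0.20. Lower in all 8 mice, as Maf was, held for 1.8% of all genes tested. Maf, which takes part in the resident macrophage programme and is also made by other skin cells, was lower in all 8 mice, with 270 ± 20.0 CPM (SD, n = 8) at 24 months and 219 ± 32.9 at 30 months and a log2 fold change of -0.31 (unadjusted p = 0.00605, adjusted p = 0.272, edgeR). Cebpb, a factor of inflammatory gene expression, had a log2 fold change of 0.24, with 7 of 8 mice higher. Spi1, the gene of PU.1, had 15.2 ± 3.01 and 19.3 ± 11.3 CPM, a log2 fold change of 0.21, and went from 13.04 to 46.1 CPM in mouse 50.

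A further 15 genes of resident dermal macrophages, with Mrc1 and Cd163 left out, had a median log2 fold change of -0.02. Above 0 were 7 of the 15, beside 52.1% of all genes tested. At an unadjusted p under 0.05, 1 was higher and 1 lower, beside 4.83% and 7.37% of all genes tested. Lyve1, a hyaluronan receptor that lymphatic endothelium also makes, was higher in 7 of 8 mice (log2 fold change 0.45, unadjusted p = 0.0132), and Mgl2, a lectin of dermal macrophages and dendritic cells, was lower in 6 of 8 mice (-0.62, unadjusted p = 0.00902, edgeR in both). Mgl2 and Mrc1, which are often used together, parted in mouse 50, where Mgl2 went from 37.2 to 15.8 CPM and Mrc1 from 61.6 to 178 CPM. Mouse 29 had the highest Lyve1 value, 67.3 CPM beside 27.6 at 24 months, together with its high Cd163, 95.04 beside 44.97 CPM. The sum of the 15 genes went the other way in mouse 29, from 452 to 392 CPM. The sum of 6 lymphatic endothelium genes, Lyve1 among them, rose there from 103 to 177 CPM. Which cells the Lyve1 reads of mouse 29 came from was not tested. In the same mouse Hmox1, which breaks down haem and was picked after its values were seen, went from 76.4 to 198 CPM, beside 76.2 to 102 CPM at 30 months in the other 7 mice.

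Among 18 complement and phagocyte genes none reached an unadjusted p of 0.05, beside 12.2% of all genes tested, and the median log2 fold change was 0.29. The smallest p belonged to C1qb and C1qc, subunits of the first complement component, which macrophages make in most tissues. C1qb had 58.4 ± 12.7 CPM (SD, n = 8) at 24 months and 113 ± 102 CPM at 30 months (log2 fold change 0.64, unadjusted p = 0.0728), and C1qc had a log2 fold change of 0.54 (unadjusted p = 0.0838, edgeR in both). Each was higher in 7 of 8 mice, all but mouse 13 in the case of C1qb. In mouse 50, 17 of the 18 were more than 2-fold higher, beside 6.92% of all genes tested, and C1qb went from 48.3 to 361 CPM.

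Genes of monocytes and of activation states were read in the same way, beside 4.83% of all genes tested higher and 7.37% lower at an unadjusted p under 0.05. Of 9 monocyte genes tested, Ly6c2 was higher (log2 fold change 0.73) and Fn1 lower (-0.60) at an unadjusted p under 0.05; Fn1, fibronectin, is also a gene of fibroblasts. Of 12 inflammatory genes, Nos2, the inducible nitric oxide synthase, was higher (1.17, unadjusted p = 0.0383, edgeR), at 0.306 ± 0.118 CPM (SD, n = 8) at 24 months and 0.914 ± 1.03 at 30 months, with its highest values in mice 21 and 50. Of 6 genes of alternative activation, Ccl22 was higher in 7 of 8 mice (0.91, unadjusted p = 0.0072, edgeR), and of 10 genes of lipid-associated macrophages, Lpl, a lipase that fat cells also make, was higher in 7 of 8 (0.37). The summed level of the inflammatory list lay between 16.9 and 29.4 CPM in all libraries but those of mice 21 and 50 at 30 months, which had 150 and 428 CPM.

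Markers of other cell types moved along with the macrophage genes in mouse 50, and their part in the result was not tested. The 8 general markers summed to 438 CPM at 24 months and 1211 CPM at 30 months in this mouse, and to 366 to 865 CPM in the other 15 libraries. In the same pair, 8 T cell genes went from 61.9 to 193 CPM (35.4 to 74.0 in the others), 7 mast cell genes from 309 to 756 CPM (187 to 432), 10 monocyte genes from 320 to 864 CPM (219 to 524) and 6 fibroblast genes from 3905 to 14027 CPM (2564 to 7437). Each of these sums was above all other libraries in mouse 50 at 30 months, as was that of the macrophage genes. The sums of basal keratinocyte and cartilage markers went the other way there: 5 basal keratinocyte genes from 11861 to 7454 CPM and 5 cartilage genes from 130 to 89.6 CPM. The sum of the differentiated keratinocyte genes also fell, from 14269 to 11333 CPM, but Krt1 of that list rose from 418 to 2083 CPM.

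Neutrophils, which also make Lyz2 and Cd14, were represented by 10 genes, of which 4 passed the filter on low counts, with 9.42 to 65.2 CPM in sum at 24 months and 10.1 to 48.6 CPM at 30 months; mouse 50 went from 9.42 to 48.6 CPM. Ly6g, which defines neutrophils in the mouse, had at most 3 counts in any library. Langerhans cells and dendritic cells share Csf1r, Cd68 and other members. Of 5 Langerhans cell genes 1 had a log2 fold change above 0 (median -0.10), and of 8 dendritic cell genes 4 did (median -0.03). The genes of these lists at an unadjusted p under 0.05 were Cd207, Cd209a and Ccr7, beside 12.2% of all genes tested. Higher in all 8 mice, as Ccr7 was, held for 1.09% of all genes tested. Cd207, which marks Langerhans cells, was lower in 7 of 8 mice (log2 fold change -0.61, unadjusted p = 0.00590) and Cd209a, of dermal dendritic cells, was lower in 7 of 8 (-1.09, unadjusted p = 0.00161), whereas Ccr7, the receptor that guides dendritic cells to lymph nodes, was higher in all 8 (1.57, unadjusted p = 0.00625, edgeR in each). In mouse 13, where all 10 macrophage genes were lower, the skeletal muscle genes were 9.76 times as high at 30 months, the endothelial ones 1.81 times and the basal keratinocyte ones 1.43 times. Such shifts were not particular to mouse 13. The skeletal muscle genes stood at 7.04 times in mouse 21, 3.32 in mouse 14 and 0.118 in mouse 43. The endothelial ones stood at 2.39 times in mouse 21, 2.45 in mouse 29 and 2.32 in mouse 50, where all 10 macrophage genes were higher. Most lists of other immune cells were lower in mouse 13, as the macrophage genes were. The B and plasma cell genes stood at 0.425 times their 24-month sum, the neutrophil genes at 0.513 and the mast cell genes at 0.573. The dendritic cell genes stood at 0.624, the Langerhans cell genes at 0.688, the monocyte genes at 0.740 and the T cell genes at 0.843 times. The fibroblast genes stood at 0.567 times. In the Langerhans cell list Cd74 had the highest mean at 24 months, 520 CPM beside 15.6 CPM for Cd207. Cd207 alone stood at 0.919 times in mouse 13. The part of these other markers in the levels of the macrophage genes was not tested.

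**Figure D5:**
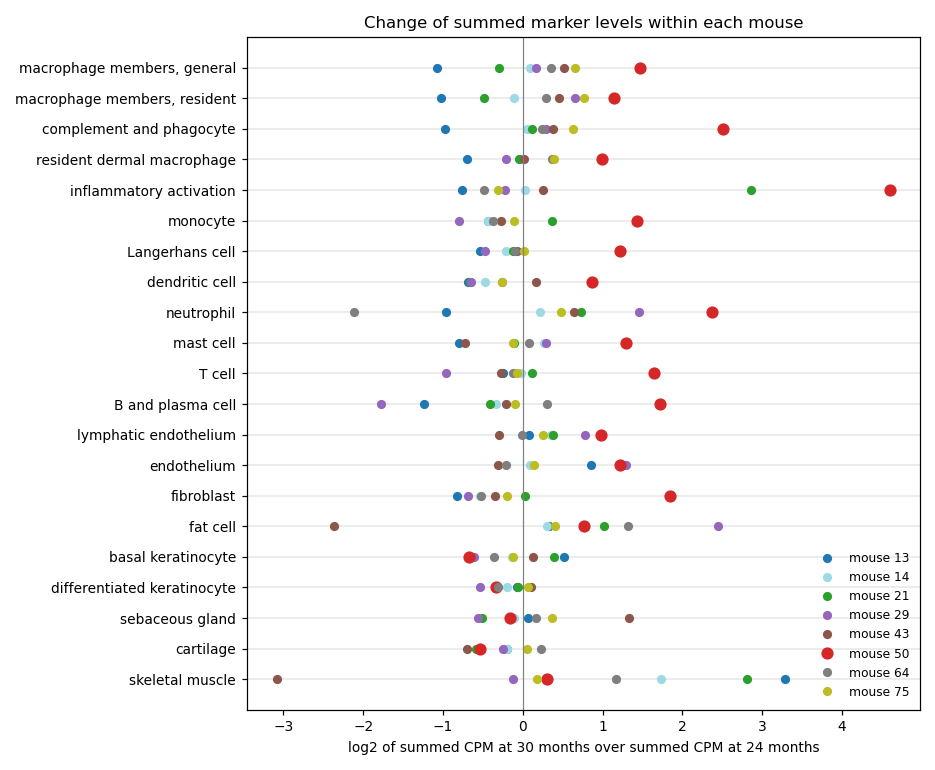
Log2 of the summed CPM of each marker list at 30 months over that at 24 months, 1 point per mouse, for the general and resident macrophage members and 19 other lists. Mouse 50 (large points) stands at the right for the macrophage, monocyte, T cell, mast cell and fibroblast lists and left of 0 for both keratinocyte lists, and mouse 13 stands at the left for the macrophage lists.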

How the data were processed

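RNA of ear biopsies was measured in 16 libraries, 8 mice at 24 and 30 months, read as 50-base single-end reads from a kit that does not mark strand. The authors aligned the reads to mm10 and counted them per gene; their processing notes name TopHat2 2.1.0 and HTSeq 0.6.1p1, and whether strand was used in counting is not given in the sources used here. The deposited values are raw counts per gene, without normalization and with the libraries kept apart. The 5 summary lines that name no gene held 18.7% to 21.1% of a library and were left out.

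Counts were tested with edgeR 4.0.16 in R 4.3.3 (TMM, factors 0.961 to 1.04; filterByExpr; quasi-likelihood test, blocked on the mouse because both libraries of a pair come from 1 animal) and Benjamini-Hochberg adjustment at 0.05. The deviations from the age means had a median correlation of -0.03 within mice. DESeq2 1.42.0 and an exact sign-flip test were alternatives. CPM and RPKM were computed with TMM-scaled library sizes and GENCODE M21 exon lengths; within-mouse differences used log2(CPM + 0.1). On simulated counts for 20116 genes, edgeR called 172 of 200 genes changed 2-fold, with 14 false calls. The simulated mice did not differ in level, no simulated biopsy stood apart, and the 200 genes were drawn from all genes tested. The simulation therefore cannot say whether a 2-fold change of the members would have been called. No 2 libraries were identical. The members and gene lists were chosen with earlier results of these data known. Genes named were the 10 members, Lyz1, from each macrophage list those at an unadjusted p under 0.05 or the 2 with the smallest p, and the 10 genes most like the members' mean; others were named after their values were seen. SDs cover the spread between mice, and the standard errors of edgeR cover the variation of the within-mouse change. Each mouse gave 1 biopsy per age, so this variation cannot be told apart from that between biopsies of 1 animal.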

Additional observations from a re-analysis of the deposited data

Results flagged for a closer look

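Of 30 groups of 8 values tested for a lone extreme value (the CPM of each member at each age and its within-mouse log2 difference), 5 held one, where chance gives about 1 in 20 for independent, normally spread values. These groups share mice and members that move together, so that rate does not apply to them as it stands and was not measured here. In 4 of the 5 it was mouse 50. Adgre1 in mouse 50 at 30 months had 57.4 CPM, with 19.4 CPM in the nearest mouse, and its within-mouse log2 difference was 2.43, with 0.11 in the nearest. Fcgr1 in mouse 50 at 30 months had 40.4 CPM beside 5.25 in mouse 21, the nearest. Trem2 in mouse 50 at 30 months had 37.7 CPM beside 16.0 in the nearest mouse. Mertk in mouse 29 at 30 months had 59.2 CPM beside 36.7 in the nearest mouse. Why these biopsies stood apart was not tested.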

How the results depend on the processing

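No result for the members passed an adjusted p of 0.05 in the paired edgeR fit, so the limits below concern directions and unadjusted p-values. The count of genes called, 0 with edgeR and the block on the mouse, was 4 with no replicate block and 241 with DESeq2's Wald test, and 0 in each fit that left out a mouse. The count of members at an unadjusted p under 0.05, 0 in that fit, was 2 without the pairing of the libraries, Fcgr1 (log2 fold change 2.16) and Cd14 (0.48), and 0 to 3 over the fits that left out 1 mouse: 3 without mouse 13 (Lyz2, Cd14 and Trem2) and 1 without mouse 21 (Cd14). The other scalings, the absence of a filter and the age in months as a covariate left this count at 0. Over all genes tested, 1612 were higher and 1565 lower at that threshold without the pairing, of 20116. Without mouse 13 these were 1000 and 1293 genes, and without mouse 21 they were 717 and 1019. The direction turned for Csf1r (-0.025) and Mrc1 (-0.035) without mouse 50 and for Mertk (-0.019) without mouse 29. For Adgre1, at -0.03, it turned with no replicate block (0.26), with age as a covariate (0.0062 per month), in the mean of the sign-flip test (0.0047), and without mouse 13 (0.18), 14 (0.0040), 21 (0.03) or 29 (0.0057). Over the fits without 1 mouse the log2 fold change ran from 0.09 to 0.47 for Lyz2, -0.02 to 0.24 for Csf1r, -0.34 to 0.18 for Adgre1, 0.06 to 0.43 for Cd68, -0.02 to 0.21 for Mertk, 0.22 to 0.997 for Fcgr1, 0.24 to 0.55 for Cd14, 0.19 to 0.72 for Trem2, -0.03 to 0.34 for Mrc1 and 0.13 to 0.41 for Cd163. The average log2 ratio of the sum ran from 0.06 without mouse 50 to 0.42 without mouse 13. The last analysis and the sum without Lyz2 were added after the data had been seen. The cause of these shifts was not tested. With 8 pairs the exact sign-flip permutation test cannot go below p = 0.0078, and its two-sided p ran from 0.148 for Cd14 to 1 for Adgre1. The scarcest member, Fcgr1, rested on 26 counts in its lowest libraries.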
